A study of Mus musculus with 16 samples.

Results

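The comparison sets P19CL6 cultures after 8 days in medium with 1% dimethyl sulfoxide (DMSO) beside P19CL6 cultures kept in growth. Its members were chosen by their labels. They are 6 of the 16 arrays of the study, namely day 8 replicates A, B and C and growth replicates A, B and C, and 10802 genes were tested on them. P19CL6 is a mouse embryonal carcinoma line selected for its readiness to form beating heart muscle. The growth cultures received no DMSO and were passaged every 48 h, whereas the day 8 cultures stood in 1% DMSO with fresh medium every 48 h. No culture was kept as long without DMSO, so DMSO and time without passage cannot be told apart. The study's text calls the samples of a group independent, without saying whether they came from separate cultures or thawings. The limma p-values thus measure the spread between samples within a group, pooled over the 6 groups of all 16 arrays. Day 6 (2 arrays) and day 10 (3 arrays) of the same DMSO series were used to place day 8 in time.

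Embryonal carcinoma cells resemble the pluripotent cells of the early embryo and are held in that state by transcription factors such as Pou5f1, Nanog and Sox2. On the way to heart muscle such cells pass through mesoderm, then through progenitors marked by Isl1 and Gata factors, and then assemble sarcomeres, in which troponin and tropomyosin on the actin filament let calcium gate the pull of myosin. The embryonic heart first uses slow skeletal troponin I (Tnni1), and early mesoderm is also the source of the primitive red blood cells that carry the embryonic globin Hbb-bh1.

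Promoters of the contractile genes that rose are shown first, because these genes encode the sarcomere, by which heart muscle differentiation is usually read. All 14 contractile genes called higher at day 8 (the call is defined below) matched the promoter table of RefSeq (mouse build GRCm38.p6), with 22 windows of 250 bases before to 50 after an annotated start. The CArG box, the site bound by serum response factor, was searched on both strands and lay in 5 of the 22 windows (22.7%), against 535 of all 32851 windows (1.63%). The 5 windows belong to 4 genes, Actc1, Ldb3, Myom1 and Nebl, and the 2 windows of Ldb3 overlap and share 1 box. The MEF2 box lay in 2 of the windows (9.09%), those of Ttn and Mybpc3, against 3.19% of all windows. For TATAAA the shares were 9.09% and 13.6%, for AGATAA 18.2% and 11.2%, and for CANNTG 81.8% and 72.3%. AGATAA is a site of Gata factors and CANNTG the E-box. TATAAA, the core of the TATA box, lay after the annotated start in both windows that hold it, at 34 to 39 in Actc1 and 2 to 7 in Myh6, not where a TATA box lies. A MEF2 box can contain TATAAA, but none of the 22 windows held both. In the 2 windows of Tnni1 none of the CArG box, the MEF2 box, TATAAA and AGATAA was found. A match is a description of letters and not a sign of binding. One window of each of the 6 genes follows, 5′ to 3′ on the strand of the gene, with CArG boxes, MEF2 boxes and TATAAA in capitals.
Actc1, cardiac actin, chr2:114052826-114053125, minus strand, CArG box at -47 to -38 from the start: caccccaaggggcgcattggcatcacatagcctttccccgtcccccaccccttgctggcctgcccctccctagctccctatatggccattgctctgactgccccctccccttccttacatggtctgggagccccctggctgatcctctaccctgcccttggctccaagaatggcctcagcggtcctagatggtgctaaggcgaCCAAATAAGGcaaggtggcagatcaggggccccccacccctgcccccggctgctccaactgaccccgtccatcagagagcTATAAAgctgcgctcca
Ldb3, a Z-disc protein, chr14:34588632-34588931, minus strand, CArG box at -35 to -26: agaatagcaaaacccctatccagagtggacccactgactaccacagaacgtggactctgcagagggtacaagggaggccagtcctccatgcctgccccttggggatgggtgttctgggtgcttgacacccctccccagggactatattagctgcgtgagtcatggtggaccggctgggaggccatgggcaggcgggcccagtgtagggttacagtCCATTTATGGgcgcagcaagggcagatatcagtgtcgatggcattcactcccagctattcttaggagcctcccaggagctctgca
Myom1, the M-band protein myomesin, chr17:71019307-71019606, plus strand, CArG box at -99 to -90: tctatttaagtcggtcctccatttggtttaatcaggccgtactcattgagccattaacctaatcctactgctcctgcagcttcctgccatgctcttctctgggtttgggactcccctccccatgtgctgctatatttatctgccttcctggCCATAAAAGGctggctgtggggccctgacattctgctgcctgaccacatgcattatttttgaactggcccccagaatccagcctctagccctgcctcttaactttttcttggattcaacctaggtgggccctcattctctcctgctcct
Nebl, the Z-disc protein nebulette, chr2:17462807-17463106, minus strand, the only one of 4 windows with a CArG box, at -162 to -153: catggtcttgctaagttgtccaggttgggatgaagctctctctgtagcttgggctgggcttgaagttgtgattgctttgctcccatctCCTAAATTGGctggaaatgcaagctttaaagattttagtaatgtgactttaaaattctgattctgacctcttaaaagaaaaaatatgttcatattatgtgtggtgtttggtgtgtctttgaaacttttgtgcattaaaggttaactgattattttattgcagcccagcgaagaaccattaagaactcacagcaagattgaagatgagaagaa
Ttn, titin, chr2:76982498-76982797, minus strand, MEF2 box at -166 to -157: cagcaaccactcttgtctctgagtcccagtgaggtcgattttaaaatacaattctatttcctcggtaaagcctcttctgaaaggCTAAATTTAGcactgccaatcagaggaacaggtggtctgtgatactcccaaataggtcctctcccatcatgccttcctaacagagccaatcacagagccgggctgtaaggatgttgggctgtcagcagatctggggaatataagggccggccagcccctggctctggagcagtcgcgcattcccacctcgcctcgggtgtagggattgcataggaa
Mybpc3, cardiac myosin-binding protein C, chr2:91117894-91118193, plus strand, MEF2 box at -90 to -81: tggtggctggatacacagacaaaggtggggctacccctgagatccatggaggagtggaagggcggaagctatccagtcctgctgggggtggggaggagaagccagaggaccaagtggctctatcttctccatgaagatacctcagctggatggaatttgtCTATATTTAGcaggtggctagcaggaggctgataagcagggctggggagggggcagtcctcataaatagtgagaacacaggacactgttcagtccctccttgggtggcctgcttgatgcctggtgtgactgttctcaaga

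All values are signals of 1 probe set per gene on the log2 scale, so that a difference of 1 is a doubling. Dim means that every array of a group read under a log2 signal of 4. Where one group was dim, the fold is a lower bound, measured from 4 up to the mean of the other group. A fitted log2 difference from a dim group is then a value of the fit, and the bound is the size that can be read. Calls required a limma p under 0.05, adjusted across the 10802 genes by the Benjamini-Hochberg method, together with a difference of at least 1 log2. "Rose" and "fell" are used of called genes. The signal of a probe set depends on its probes, so levels are not compared between genes. On each of the 16 arrays 39.6 to 42.5% of probe sets lay above 4, and array medians were 3.16 to 3.27. As a check of RNA quality, the Actb control probes at the 3′ end exceeded those at the 5′ end by 0.91 ± 0.04 log2 in growth and by 0.89 ± 0.11 at day 8 (SD, n = 3 each; two-sided exact permutation p = 0.8, adjusted p = 1 over 3 control measures, where 0.1 is the smallest p that 3 against 3 allows). The 18S rRNA control read 5.24 ± 0.38 in growth and 6.18 ± 0.70 at day 8, highest on day 8 A at 6.88 (exact permutation p = 0.2, adjusted p = 0.6). In bulk samples, fewer cells of a type and less RNA per cell cannot be told apart.

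Day 8 replicate A stood apart from the other 2 day 8 arrays before any comparison with growth was made. Over the tested genes it correlated at 0.992 and 0.990 with the day 6 arrays, at 0.967 with day 8 replicate B and at 0.956 with replicate C, whereas B and C correlated at 0.987. Its mean absolute difference was 0.219 and 0.255 log2 from the day 6 arrays and 0.419 and 0.468 from B and C. It lay at least 1 log2 below the mean of B and C for 637 genes and at least 1 log2 above it for 277, while B and C were that far apart for 283. The main counts are therefore also given without replicate A, and those of a gene list where they differ.

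With all arrays 3349 of 10802 genes were called (31%), 1727 higher (16%) and 1622 lower (15%) at day 8. Without replicate A there were 3613 (33.4%), 1871 higher (17.3%) and 1742 lower (16.1%), and 3166 genes were called in the same direction in both fits and 0 in opposite directions. The median difference over all genes was 0.0089 log2. At 2 log2 or more, 691 genes were higher and 482 lower. At 6 log2 or more the numbers were 35 and 12. For 377 of the genes called higher growth was dim and day 8 was not, and for 358 of those called lower day 8 was dim and growth was not. With values under 4 set to 4, the groups did not overlap for 6031 genes (55.8%), 3051 of them called, and in the other 298 called genes they did. Replicate A lay outside the growth range, on the called side, for 3273 of the 3349 called genes, counting any margin and values under 4. It lay less than 1 log2 beyond that range, or not beyond it, for 695 genes called higher and 656 called lower. A took part in these calls, so its side is no separate check of them. Among genes called higher, B and C were at least 1 log2 farther from growth than A in 364 and A was farther in 57.

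Among the 15 largest rises without overlap were Tnni1, the cardiac factors Isl1 and Tbx20, the EMT factor Snai2 and the growth factor Igf2. Tnni1, slow skeletal troponin I, was at 2.92, 2.73 and 2.26 in growth A, B and C and at 9.39, 12.32 and 12.56 at day 8 A, B and C. All growth arrays were dim and all day 8 arrays lay far above them, with A about 3 log2 under B and C. Tnni1 was at least 172-fold higher (difference 8.79 ± 0.61 log2, SE, adjusted p = 7.66e-08) and, without A, at least 347-fold. Igf2, the fetal insulin-like growth factor, was at 4.98, 5.70 and 5.05 and then 13.54, 14.02 and 14.03. Growth was not dim here, all day 8 arrays were alike, and the difference of 8.63 ± 0.56 log2 was a 395-fold rise. Snai2, a transcription factor of epithelial to mesenchymal transition (EMT), was at 3.72, 3.67 and 3.95 and then 11.71, 11.06 and 12.18, at least 201-fold higher, with A between B and C. Prdm6, a transcription factor known from smooth muscle, was at 3.02, 2.66 and 3.13 and then 9.98, 10.00 and 10.10, with the smallest spread at day 8 of these genes. Dlk1, a Notch-related membrane protein of fetal tissue, was at 2.90, 2.63 and 2.68 and then 7.75, 11.68 and 11.89. Its A array lay 4.03 log2 under the mean of B and C but 4.85 above the highest growth array. Igfbp5, which binds insulin-like growth factors, had the same order, 7.59 on A against 10.97 and 10.88, from 2.22 to 2.55 in growth.

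Among the other 9, Nrp1, a receptor for semaphorins and VEGF, was at least 189-fold higher, and Ahnak, a large membrane-associated protein, at least 224-fold. The bound for Ahnak is that of 1 probe set, while others differed by 1.39, called, and 0.64, not called. The adhesion protein Cdh11 was at least 93.1-fold higher, and the RNA-binding protein Rbms3 at least 82.4-fold. Bmp5, a bone morphogenetic protein, was at least 62.3-fold higher. The anterior Hox gene Hoxb2 was at 1.55 to 1.82 in growth and 8.69 to 9.52 at day 8, at least 35.1-fold higher. The cardiac T-box factor Tbx20 was at least 54.6-fold higher. The cardiac chromatin remodelling subunit Smarcd3 was at 2.58, 2.81 and 4.41 in growth and at 10.17, 10.79 and 10.48 at day 8. Growth A and B lay under 4, so its fitted difference of 7.21 log2 is not given as a fold. Isl1, described below with the markers, completes the list.

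**Figure D1:**
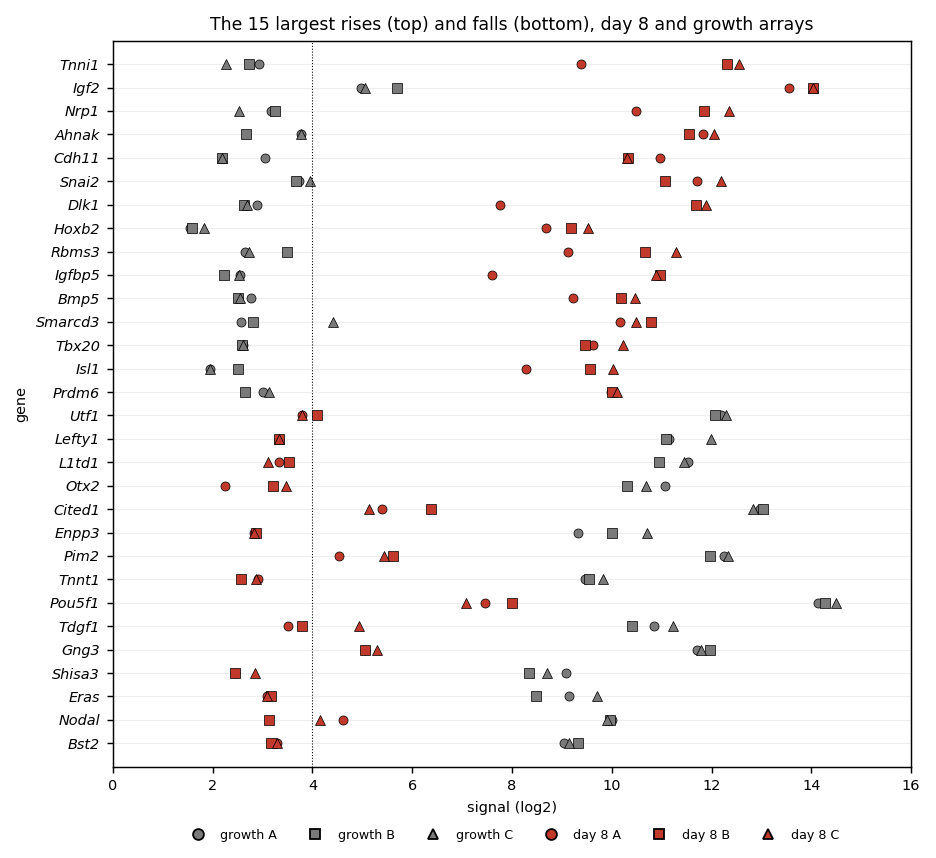
Log2 signal (x axis) of the 15 largest rises (upper rows) and 15 largest falls (lower rows) on each growth (grey) and day 8 (red) array, with circles, squares and triangles for replicates A, B and C and a dotted line at the dim floor of 4. Groups do not overlap in any row, and day 8 A lies left of B and C for Tnni1, Dlk1 and Igfbp5 but among or beside them for Prdm6 and Snai2.

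Among the 15 largest falls were Utf1, Pou5f1, L1td1, Tdgf1 and Eras, all in the pluripotency list. Utf1, a chromatin factor of undifferentiated cells, was at 12.18, 12.07 and 12.29 in growth and at 3.80, 4.10 and 3.79 at day 8. The groups were more than 7 log2 apart on every array, and Utf1 fell by 8.28 ± 0.36 log2 (SE, adjusted p = 6.43e-10). Lefty1, an inhibitor of Nodal, was at 11.14, 11.09 and 12.00 and then 3.33, 3.34 and 3.33, at least 170-fold lower. Pou5f1 was at 14.12, 14.27 and 14.50 and then 7.46, 8.00 and 7.07. It fell by 6.79 log2, to a level still above 4 on all day 8 arrays. Otx2, a factor of the anterior epiblast and forebrain, was at 11.06, 10.30 and 10.69 and then 2.25, 3.2 and 3.47. Nodal was at 10.00, 9.96 and 9.91 and then 4.62, 3.14 and 4.15, and its co-receptor Tdgf1 fell by 6.75 log2. The remaining falls were L1td1, Cited1, Enpp3, Pim2, Tnnt1, Gng3, Shisa3, Eras and Bst2, between -5.92 log2 for Bst2 and -7.98 for L1td1. For the 15 falls A minus the mean of B and C was between -1.09 (Otx2) and 0.97 log2 (Nodal). For the 15 rises it was between -4.03 (Dlk1) and 0.65 (Cdh11).

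Day 8 was also described by 4 markers, Tnni1, Tnnt2, Isl1 and Hbb-bh1. Tnni1 and Isl1 are also among the 15 largest rises, so the markers are no separate check of the label. Tnnt2, cardiac troponin T, was at 3.03, 2.95 and 2.98 in growth and at 6.03, 8.90 and 10.77 at day 8. All growth arrays were dim, all day 8 arrays lay above them, and the day 8 arrays spanned more than 4 log2. The difference was 5.58 ± 0.77 log2 (at least 23.7-fold, adjusted p = 4.25e-05) and 6.85 without A. Isl1, the homeobox factor of cardiac progenitors, was at 1.95, 2.50 and 1.95 and then 8.28, 9.57 and 10.02, a rise of at least 39.1-fold with no overlap. Hbb-bh1 was at 3.56, 2.99 and 3.12 and then 2.95, 11.96 and 12.63. Its A array was as dim as growth, whereas B and C were more than 8 log2 above every growth array. The day 8 SD of Hbb-bh1 was 5.41, against 0.03 to 0.85 in the other groups that share the fitted spread. The gene was called with all arrays (difference 5.96 ± 1.72, adjusted p = 0.00995), although the groups overlap, and the difference was 9.07 (adjusted p = 6.79e-10) without A. Thus Tnni1, Tnnt2 and Isl1 were above growth on all 3 day 8 arrays and Hbb-bh1 on only 2 of them.

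**Figure D2:**
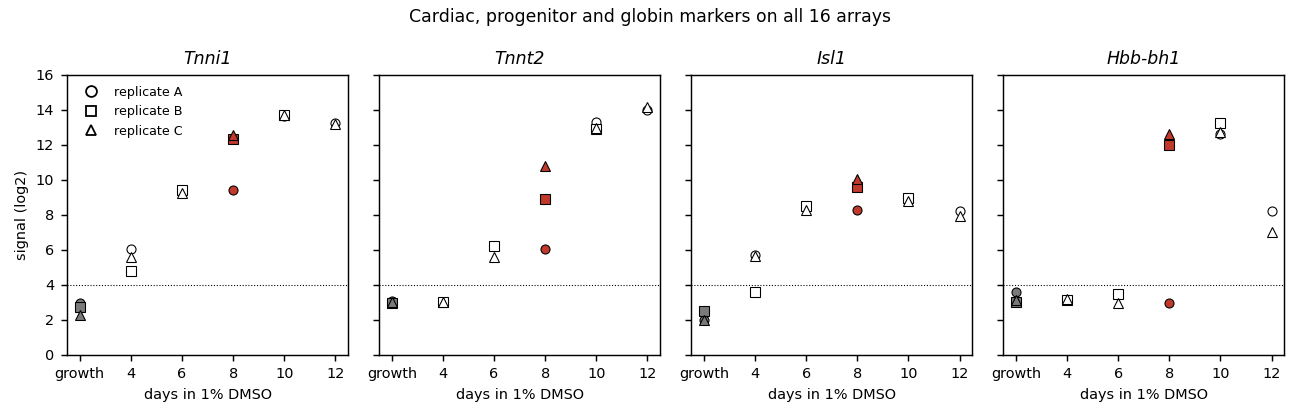
Log2 signal (y axis) of Tnni1, Tnnt2, Isl1 and Hbb-bh1 on all 16 arrays, by group (x axis, growth and days in 1% DMSO), with growth in grey, day 8 in red, other days open, circles, squares and triangles for replicates A, B and C, and a dotted line at the dim floor of 4. Day 8 A sits at the height of the day 6 arrays in all panels, and for Hbb-bh1 it is at 2.95 beside 11.96 and 12.63.

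Of 32 contractile genes listed, 31 were on the array and 24 were tested, 7 being dim. Of the 24, 14 rose and 2 fell, with a median of 1.81 log2 against 0.0089 over all genes, and without A 15 rose and 2 fell. In 9 of these 16 called genes the arrays overlapped. The mean level over the 24 was 3.97 to 4.10 on growth arrays, 4.33 on day 8 A, 6.11 on B and 6.82 on C. This mean joins rises and falls: on A, Tnni1, Tnnt2 and Nebl were well above growth and Tnnt1 well below it.

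Thin filament genes differed in how far A had moved. Tpm1, tropomyosin, was at 10.10, 10.10 and 9.77 in growth and at 11.60, 11.66 and 11.74 at day 8, a rise of 1.67 log2 seen on all arrays. Tnnc1, the calcium-binding troponin of heart and slow muscle, was at 4.44, 5.37 and 5.07 and then 5.57, 6.53 and 7.64, a rise of 1.62. Actc1 was at 2.70, 2.84 and 2.23 and then 2.88, 4.90 and 6.18. On A it stayed dim, so the rise of 2.06 (adjusted p = 0.013) rests on B and C. Both falls were also thin filament genes. Tpm2, beta-tropomyosin, fell by 1.06, while its other probe sets differed by -0.82 and 0.15, not called. Tnnt1, slow skeletal troponin T, was at 9.46, 9.55 and 9.82 and then 2.92, 2.57 and 2.87, at least 48.9-fold lower. Of the troponin T genes Tnnt1 thus fell and Tnnt2 rose, and a replacement of one by the other was not tested. Tnnt1 averaged 3.71 at day 4, when Tnnt2 averaged 3.01, and Tnnt1 averaged 4.68 at day 10 and 6.83 at day 12. Cardiac troponin I, Tnni3, was at 2.43 to 2.48 in growth and 2.34 to 2.38 at day 8.

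The thick filament genes that rose were high on B and C and not on A. Myl4, the atrial essential light chain, was at 2.82, 2.78 and 2.76 in growth and at 3.60, 8.28 and 8.48 at day 8. Myl7, the atrial regulatory light chain, was at 5.04, 4.85 and 3.79 and then 3.27, 10.27 and 11.23. For Myl7, A lay below every growth array, the gene was not called with all arrays (difference 3.70, adjusted p = 0.0517), and without A it was 6.19 log2 higher (adjusted p = 1.59e-05). Myh6, the alpha heavy chain, was at 3.07, 4.48 and 7.0 at day 8 and Myh7, the beta heavy chain, at 3.48, 5.94 and 7.19, both from 3.14 to 3.89 in growth. Each had C highest, and their differences were 1.66 and 1.96 (adjusted p = 0.0485 and 0.0236). Mybpc3 was at 3.16, 7.08 and 7.03, from 2.73 to 2.75. The ventricular light chains were not called: Myl2 was at 2.30 to 2.31 in growth and 2.32 to 2.36 at day 8, and Myl3 had a difference of -0.13.

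Scaffold genes of the sarcomere followed the same order, with one exception on A. Nebl was at 2.84, 2.89 and 2.89 in growth and at 5.33, 6.19 and 7.31 at day 8, above growth on all arrays (difference 3.40, adjusted p = 1.05e-05). Ttn was at 3.46, 6.25 and 7.39 at day 8, Ldb3 at 3.06, 6.01 and 7.50, Myom1 at 2.52, 5.04 and 5.84 and Csrp3, a Z-disc LIM protein, at 3.10, 7.89 and 8.97. On A each of these 4 was dim. Not called were Actn2, alpha-actinin of the Z-disc (2.79, 2.89 and 2.88 at day 8), Myom2 (2.45, 2.45 and 2.43) and Smyd1, a methyltransferase of sarcomere assembly (4.02, 4.23 and 5.51).

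**Figure D3:**
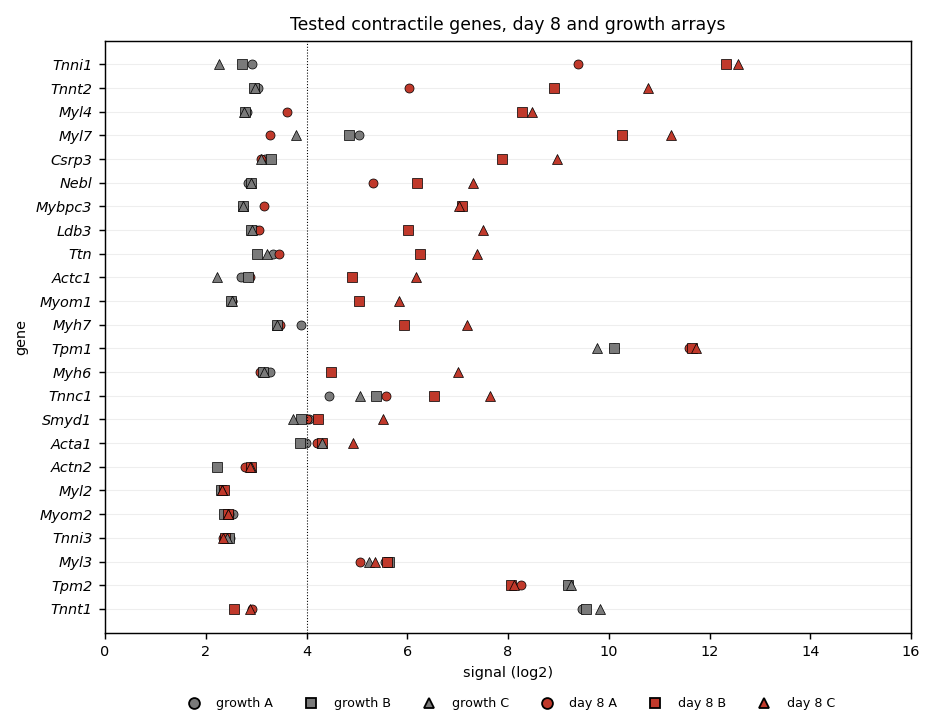
Log2 signal (x axis) of the 24 tested contractile genes, ordered by the day 8 minus growth difference, on each growth (grey) and day 8 (red) array, with circles, squares and triangles for replicates A, B and C and a dotted line at the dim floor of 4. Day 8 A lies at the growth arrays for Csrp3, Ttn, Ldb3 and Myom1 and away from them for Tnni1, Tnnt2 and Nebl, and Tnnt1 lies on the opposite side.

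Cardiac transcription factors had already moved on replicate A. Of 26 tested, 16 rose and 2 fell, with and without A, and the median was 3.14 log2. Hand1, a basic helix-loop-helix factor of the early heart, was at 3.24, 3.18 and 3.24 in growth and at 10.17, 9.81 and 8.71 at day 8. Its relative Hand2 was at 3.51, 3.42 and 2.62 and then 6.57, 10.16 and 11.25. The arrays thus ran in opposite order for the pair, A highest for Hand1 and lowest for Hand2. Gata4, a zinc finger activator of cardiac genes, was at 7.18, 7.35 and 7.13 at day 8, from 3.05 to 3.55, and Gata6 at 8.89, 9.98 and 10.14, from 3.40 to 4.20. Mef2c, a MADS box activator of muscle genes, was at 7.42, 9.29 and 9.75, from 2.96 to 3.52. Myocd, the coactivator of serum response factor, was at 2.68, 6.06 and 7.13, from 2.57 to 2.84, so that A alone had no rise. Tbx3, a T-box factor of the conduction system, ran the other way, at 9.09, 8.06 and 6.74. The 2 falls were Foxh1, the partner of Nodal-activated Smads, at 10.10, 9.68 and 10.14 and then 7.76, 6.12 and 5.11, and Tbx1, at 4.08 to 5.35 and then 1.54 to 1.84. Nkx2-5, a core cardiac homeobox factor, was at 2.13 to 2.40 in growth and 2.30 to 2.42 at day 8, and Tbx5 at 2.15 to 2.33 and 2.27 to 2.42. Neither passed the test by its probe set, and both were dim in both groups.

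Of 18 calcium handling and channel genes tested, 5 rose (27.8%) and 3 fell (16.7%, against 15% over all genes), the same numbers as without A, with a median of 0.18. Ryr2, the calcium release channel, was at 3.05 to 3.12 in growth and at 4.98, 6.71 and 6.96 at day 8. Jph2, which ties the sarcoplasmic reticulum to the cell membrane, was at 2.53, 5.43 and 6.70, from 2.41 to 2.42, with A at growth. Pln, the inhibitor of the calcium pump, was at 2.97, 3.60 and 6.75, with C alone high. It was not called with all arrays (adjusted p = 0.0864) and was called without A, 2.18 log2 higher. Cacna1g, a T-type calcium channel, fell from a range of 7.43 to 8.14 in growth to one of 2.90 to 2.92 at day 8, at least 14-fold, the potassium channel Kcnj3 fell by 3.53, and the calcium channel subunit Cacnb2 fell by 1.47. Gjc1, connexin 45, rose by 1.02 and was at 0.95, not called, without A.

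Markers of other cell types moved in the same arrays. Of 13 smooth muscle genes tested 8 rose and 2 fell (8 and 1 without A), with a median of 1.12 log2. Acta2, smooth muscle actin and an early gene of heart muscle too, was at 4.63, 5.32 and 4.01 in growth and at 7.59, 10.80 and 12.30 at day 8. Tagln was at 5.29, 8.93 and 9.84, from 4.06 to 4.96. Of the mature markers, Cnn1 was at 3.04 to 4.80 in growth and dim at 2.80 to 2.84 at day 8 (difference -1.23). It was called lower, but the groups overlap with values under 4 set to 4. Myh11 was at 3.29 to 3.42 in growth and 3.38 to 3.45 at day 8. Vcl, vinculin of adhesion sites, fell by 1.01 and was at -0.99, not called, without A. Skeletal muscle genes were dim, 9 of 10 on the array, with Myod1 at 1.98 to 2.00 and Myog at 2.60 to 2.65 at day 8.

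Some blood, endothelial, epicardial and yolk sac genes were brighter on B and C than on A, and others brightest on A. Of 9 tested blood genes 4 rose and 0 fell, with 8 dim. Hba-x, the embryonic alpha-like globin, was at 2.04, 1.95 and 2.01 in growth and at 2.04, 10.77 and 11.28 at day 8. It repeated the pattern of Hbb-bh1, A at growth and B and C more than 8 log2 above. The other 2 were Kit, a receptor of progenitor cells, at 8.30, 7.78 and 7.23, and Gata2, which was 1.05 higher with all arrays and 0.84, not called, without A. Alas2, the erythroid enzyme of haem synthesis, was at 1.77, 2.07 and 4.30 and was called only without A, 1.43 higher, and the white blood cell marker Ptprc at 2.50 to 2.56. Of 11 endothelial genes 3 rose and 3 fell (5 and 3 without A), 27.3% each, against 16 and 15% over all genes. The rises included Kdr, a VEGF receptor, at 5.01, 6.44 and 6.92 from 1.99 to 2.48, and Tek at 3.90, 6.59 and 7.26. The falls were the VEGF receptors Flt1 and Flt4, by 2.48 and 2.07, and Etv2, a factor of the first endothelium, by 1.64. Cdh5, the endothelial cadherin, and Ramp2 were called only without A, 1.54 and 1.78 higher. Cdh5 was at 2.43 to 2.48 in growth and 2.66 to 4.03 at day 8, so its highest array lay about at the dim floor of 4. Pecam1 was dim in both groups, at 2.63 to 3.10 at day 8. Of 8 epicardial and mesothelial genes 4 rose, with Bnc1 at 8.82, 9.85 and 10.53 from 2.76 to 2.85 and Upk3b at 4.34, 9.01 and 7.94 from 2.01 to 2.04, while Tcf21 was dim. Without A, Wt1 was called (1.08) and Lrrn4 was not (0.79). Wt1 was at 3.08 to 3.16 in growth and only 3.31 to 4.50 at day 8, near the dim floor of 4. Of 9 endoderm and yolk sac genes 4 rose (6 without A, with Apob and Rbp4 added), and 10 were dim. Ttr, a serum transport protein made by yolk sac, was at 2.86 to 2.90 and then 3.75, 9.78 and 7.74. Spink1 was at 3.34, 8.55 and 6.02 and Apob at 4.01, 7.85 and 3.80, each with B highest, while Afp was at 2.78 to 3.00. The mean level of this list was 4.20 on A, 6.95 on B and 5.50 on C, against 3.2 to 3.37 in growth, whereas the contractile list was highest on C. That of the blood list was 4.07, 6.13 and 6.28, against 3.27 to 3.40. The part of these cell types in the rises of the contractile genes was not tested.

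Of 17 pluripotency genes tested, 13 fell and 2 rose, and 14 fell without A, with a median of -4.49 log2. Nanog was at 8.30, 7.44 and 7.94 in growth and at 2.83, 3.48 and 3.58 at day 8. Sox2 was at 10.42, 10.97 and 11.23 and then 7.69, 8.53 and 8.34, so that it fell by 2.68 and stayed well above 4. The RNA-binding protein Lin28a was at 11.24, 9.90 and 9.06 at day 8, from 12.23 to 12.49, and the zinc finger factor Sall4 at 10.68, 9.59 and 9.46, from 11.18 to 11.58. Both were lowest on C and highest on A. Trim71 had that order too, at 9.26, 8.44 and 7.96, and was called only without A. Both rises were Krüppel-like factors: Klf4 was at 3.54 to 3.58 and then 6.48, 7.98 and 8.25, and Klf5 at 3.02 to 4.17 and then 4.51, 6.75 and 6.75. Neural and anterior epiblast genes fell as well, 8 of 12 tested, among them Stmn2 (9.51, 8.90 and 9.41 and then 4.07, 4.78 and 4.82) and Tubb3 (fell by 2.97). Ncam1 alone rose, by 1.76. Another of its probe sets was 1.735 higher and called, and others differed by 0.04 and 0.06, not called. Of 17 primitive streak genes 3 rose (17.6%) and 4 fell (23.5%), with a median of 0.02. Over all genes 16% were higher and 15% lower. The rises were Pdgfra, a receptor of paraxial and cardiac mesoderm (7.25, 7.23 and 7.70 at day 8, from 1.85 to 2.83), the apelin receptor Aplnr and the caudal factor Cdx2. Other probe sets of Pdgfra differed by 0.03 and 0.59 and that of Aplnr by 0.06, none called. Eomes, a T-box factor of mesendoderm, was at 7.64 to 7.95 and then 6.07, 4.59 and 4.05, and Fgf5 fell by 2.36. The means of Fgf5 were 4.54 in growth and 2.17 at day 8, so most of its fitted fall lies under 4 and cannot be read. The streak genes Mixl1, Evx1, Tbx6 and Msgn1 were dim in both groups.

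Of 11 genes of EMT tested 8 rose and 1 fell, with a median of 2.21 log2. Cdh2, N-cadherin, was at 4.97, 5.05 and 4.36 in growth and at 9.99, 10.86 and 11.23 at day 8, and Cdh1, E-cadherin and the 1 fall, at 7.51, 8.76 and 8.94 and then 4.50, 6.38 and 5.53. The intermediate filament gene Vim was at 13.80, 13.82 and 14.20, from 10.33 to 10.79. Snai1 was highest on A, at 6.02, 4.93 and 4.46, and Twist1 highest on B, at 4.84, 5.84 and 3.64. Of 16 epithelial genes 8 fell and 6 rose. The falls included Epcam, an adhesion protein (12.22, 12.21 and 11.98 and then 6.74, 7.54 and 5.71), and the splicing regulator Esrp1 (fell by 4.71). The 6 rises were keratins and desmosome genes, namely Krt8 (7.84, 7.53 and 8.04 and then 13.19, 13.23 and 13.10), Krt18, Dsp, Pkp2, Dsg2 and Jup, and heart muscle also uses desmosomes.

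Of 35 matrix genes tested 20 rose and 0 fell, and 24 rose without A, with medians of 1.73 and 2.12 log2. Fn1, fibronectin, was at 7.60, 7.51 and 7.46 in growth and at 11.69, 12.91 and 13.15 at day 8. Col1a2, a fibrillar collagen chain, was at 2.35 to 2.37 and then 2.94, 8.22 and 8.89. Fibronectin was thus high on A already and Col1a2 on B and C alone. Tnc (3.89, 7.65 and 8.63) and Thbs1 (2.58, 5.24 and 6.18) followed Col1a2. Vcan, a proteoglycan of the cardiac jelly, was at 3.75, 7.08 and 5.38 and then 9.58, 11.02 and 11.59, and Fbn2, fibrillin, at 3.87 to 4.88 and then 9.49, 10.14 and 10.58. Hapln1, which links hyaluronan to proteoglycan, was lowest on C, at 6.34, 6.09 and 4.59.

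Bone morphogenetic protein (BMP) signalling genes had the largest share of rises among the 33 lists, 19 of 23 tested with 1 fall, the same numbers without A, and a median of 3.10 log2. Among ligands, Bmp2 was at 2.71, 2.70 and 1.99 in growth and at 8.92, 8.75 and 8.76 at day 8. Bmp4 was at 4.48, 5.28 and 4.85 and then 10.95, 11.10 and 11.53. Bmp5, Bmp6 and Bmp7 rose by 7.35, 2.78 and 3.88. The receptors Bmpr1a, Bmpr2 and Acvr1 rose by 1.08, 1.66 and 1.33, while the transducers Smad1 and Smad5 were not called (0.41 and 0.97). Among target genes, Id2 was at 5.45, 4.85 and 5.46 and then 11.20, 11.80 and 11.78, Id1 rose by 5.48, Msx1 by 5.13 and Smad6 by 4.95. Inhibitors went both ways: Nog was at 2.15 to 3.51 and then 5.67, 6.82 and 5.23, Bambi rose by 5.51, and Fst was the only fall, by 2.04. Smad7 rose by 1.01 with all arrays and was at 0.91, not called, without A, and Fstl1 was called only without A (1.12).

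Of 16 TGF-beta genes 9 rose and 2 fell. The ligands differed: Tgfb2 was at 4.15 to 4.29 in growth and at 7.05, 9.45 and 9.69 at day 8, Tgfb3 fell from a range of 5.14 to 6.93 to one of 1.91 to 2.18, and Tgfb1 fell by 1.51. Tgfbi, a matrix protein induced by TGF-beta, was at 3.50 to 3.62 and then 5.07, 9.18 and 10.46. Of 32 Wnt genes 9 rose (28.1%) and 4 fell (12.5%), against 16 and 15% over all genes. The falls were the receptors Fzd5, Fzd6 and Lrp5 and the inhibitor Sfrp2. Wnt5a was at 3.36 to 4.06 and then 8.19, 7.89 and 7.31, Rspo3, an enhancer of Wnt signals, rose by 4.44 and Dkk1, an inhibitor, by 4.32. Genes that Wnt signals induce, Lef1 (8.45, 6.84 and 6.47 at day 8, from 5.81 to 6.09), Nkd1 (7.44, 5.93 and 5.50) and Axin2 (7.75, 6.32 and 5.6) were highest on A. Lef1 and Nkd1 were called with all arrays and not without A (0.73 and 0.57), and Axin2 in neither. Ror1, a receptor for Wnt5a, was at 4.35, 8.48 and 9.31, from 3.12 to 3.61.

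Of 17 genes of FGF and ERK feedback 5 fell (29.4%) and 2 rose (11.8%), against 15 and 16% over all genes. Fgf15 fell from a range of 6.68 to 7.2 in growth to one of 2.09 to 2.11 at day 8, and the ERK-responsive factor Etv5 was at 10.94, 11.32 and 11.44 and then 7.65, 6.92 and 4.90. The receptors Fgfr2 and Fgfr3 rose by 2.02 and 4.68, whereas Fgfr1 differed by -0.03. Of 14 Notch genes only Dlk1 rose and only Hes5, a target gene, fell (7.14% each, below the shares over all genes). Jag1, a ligand, was at 5.70, 8.78 and 9.73 and was called only without A, 2.71 higher. Of 8 Hedgehog genes 4 rose, Cdon (8.23, 9.83 and 10.60 from 6.52 to 6.76), Gli2, Gas1 and Gli3, and 5 without A. Of 9 retinoic acid genes 2 rose and 2 fell, 22.2% each (1 and 2 without A). Crabp1, which binds retinoic acid, rose by 1.46 with all arrays and was at 0.97, not called, without A. Cyp26a1, the enzyme that breaks down retinoic acid, was at 6.45, 4.64 and 3.53, from 2.60 to 3.02, a steep order with A highest, and the receptors Rara and Rarg fell by 1.25 and 2.35.

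Of 39 Hox genes listed 20 were tested, 10 rose and 0 fell, and 11 rose without A, with Hoxa10 added. Anterior members of the Hoxb cluster were highest on C, with Hoxb2 at 8.69, 9.19 and 9.52 and Hoxb3 at 8.39, 8.02 and 8.90. By contrast 5 members of groups 8 to 10 were lowest on C: Hoxa9 was at 8.31, 8.34 and 5.70, Hoxd9 at 8.10, 7.35 and 5.12, Hoxd10 at 5.33, 7.2 and 3.79, Hoxd8 at 8.05, 7.97 and 6.06 and Hoxc8 at 6.34, 5.74 and 3.90. All 5 were at 2.34 to 4.01 in growth. Hoxb9, at 5.73, 5.98 and 5.42, had a smaller spread.

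Imprinted genes, expressed from 1 parental copy, rose in 11 of 18 tested and fell in 2, with 13 rises without A and a median of 1.84 log2. Beside Igf2 and Dlk1, Ndn was at 9.11, 9.73 and 9.48 in growth and at 12.33, 12.71 and 13.04 at day 8, Igf2r, which removes Igf2, rose by 4.14 and Phlda2 by 2.81. The falls were Magel2, by 2.84, and Snrpn, by 2.72, both neighbours of Ndn in the imprinted cluster. The means of Snrpn were 5.57 in growth and 2.845 at day 8, so part of its fitted fall lies under 4. Plagl1, an imprinted zinc finger factor, was at 11.84, 12.16 and 12.35 and then 10.22, 13.24 and 13.64. A lay below growth, B and C above, and only the fit without A called it, at 1.33. In the insulin-like growth factor axis 5 of 13 rose and 1 fell (7 and 1 without A). Igfbp4, Irs1, Igf1r and Insr rose by 3.33, 2.41, 1.76 and 1.51. Other probe sets of Igf1r differed by 0.61 to 1.04, not called. The fall of Igfbp2 by 1.06 was not called without A.

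Of 23 genes of DNA methylation and Polycomb 8 fell and 3 rose (9 and 3 without A, with Uhrf1 added). The shares with all arrays were 34.8 and 13%, against 15 and 16% over all genes. Dnmt3b, a de novo methyltransferase, was at 12.13, 12.31 and 12.58 in growth and at 8.93, 7.61 and 7.24 at day 8, and Dnmt3a fell by 2.52, whereas Dnmt1, the maintenance enzyme, differed by -0.44. Cbx7, the Polycomb reader of undifferentiated cells, was at 8.43 to 8.51 and then 3.34, 2.52 and 3.08, while Cbx8 rose by 1.92, Bmi1 by 3.38 and the demethylating enzyme Tet2 by 1.29, and Ezh2, the methyltransferase of the complex, differed by -0.59.

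Proliferation genes that were called moved by smaller amounts than most genes above. Of 24 mitosis genes tested 14 fell and 0 rose, and 17 fell without A, with medians of -1.08 and -1.39 log2. Plk1, a mitotic kinase, was at 11.28, 10.97 and 10.86 in growth and at 9.32, 8.91 and 8.39 at day 8, a fall of 2.16. Bub1b, of the spindle checkpoint, was at 10.07 to 10.12 and then 8.98, 7.95 and 8.04. Of 26 replication genes 11 fell and 1 rose, and 15 fell without A. Mcm2, of the replicative helicase, was at 10.27 to 10.54 and then 9.22, 8.68 and 8.51, and Ccne1, cyclin E1, fell by 1.74 while its relative Ccne2 rose by 2.08. Mki67 differed by -0.32 and Pcna by -0.26, neither called. Cyclin D genes rose in part, Ccnd2 by 2.24 and Ccnd3 by 1.39, whereas Ccnd1 differed by 0.34. Of 27 genes of Myc and ribosome biogenesis 11 fell and 1 rose, and 15 fell without A. Dkc1, of the small nucleolar RNP, fell by 2.11 and Bop1 by 1.64. Myc was at 7.75, 6.90 and 7.38 and then 9.47, 7.31 and 6.63, above growth on A alone and not called. Mycl fell by 4.25, and Mxd4, an antagonist of Myc, rose by 2.18.

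The shares of called genes in the glycolysis list (10.5% higher and 21.1% lower) and the amino acid list (4.55 and 27.3%) came to about the 31% called over all genes, with more of them lower. In the fatty acid list 20% were higher and 20% lower. Of 19 glycolysis genes 2 rose and 4 fell (3 fell without A): Pfkp, a phosphofructokinase, rose by 1.73, and the glucose transporter Slc2a1 was at 11.44, 11.68 and 12.06 in growth and at 13.93, 13.70 and 14.09 at day 8. Of 15 genes of fatty acid oxidation and muscle energy 3 rose and 3 fell (2 fell without A). Slc25a4, the ADP/ATP carrier of heart and muscle, was at 9.93, 10.22 and 9.64 and then 13.62, 13.99 and 13.72. Cox7a1, a muscle subunit of cytochrome oxidase, fell by 3.49 and Cpt1a by 1.82, while other probe sets of Cpt1a differed by -0.15 and -0.43, not called. Of 22 genes of amino acid supply and the integrated stress response 6 fell and 1 rose (5 and 1 without A): Slc7a7, an amino acid transporter, fell by 4.52, Cth, an enzyme of cysteine synthesis, by 2.56, and Ddit3, a stress factor, rose by 1.28.

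**Figure D4:**
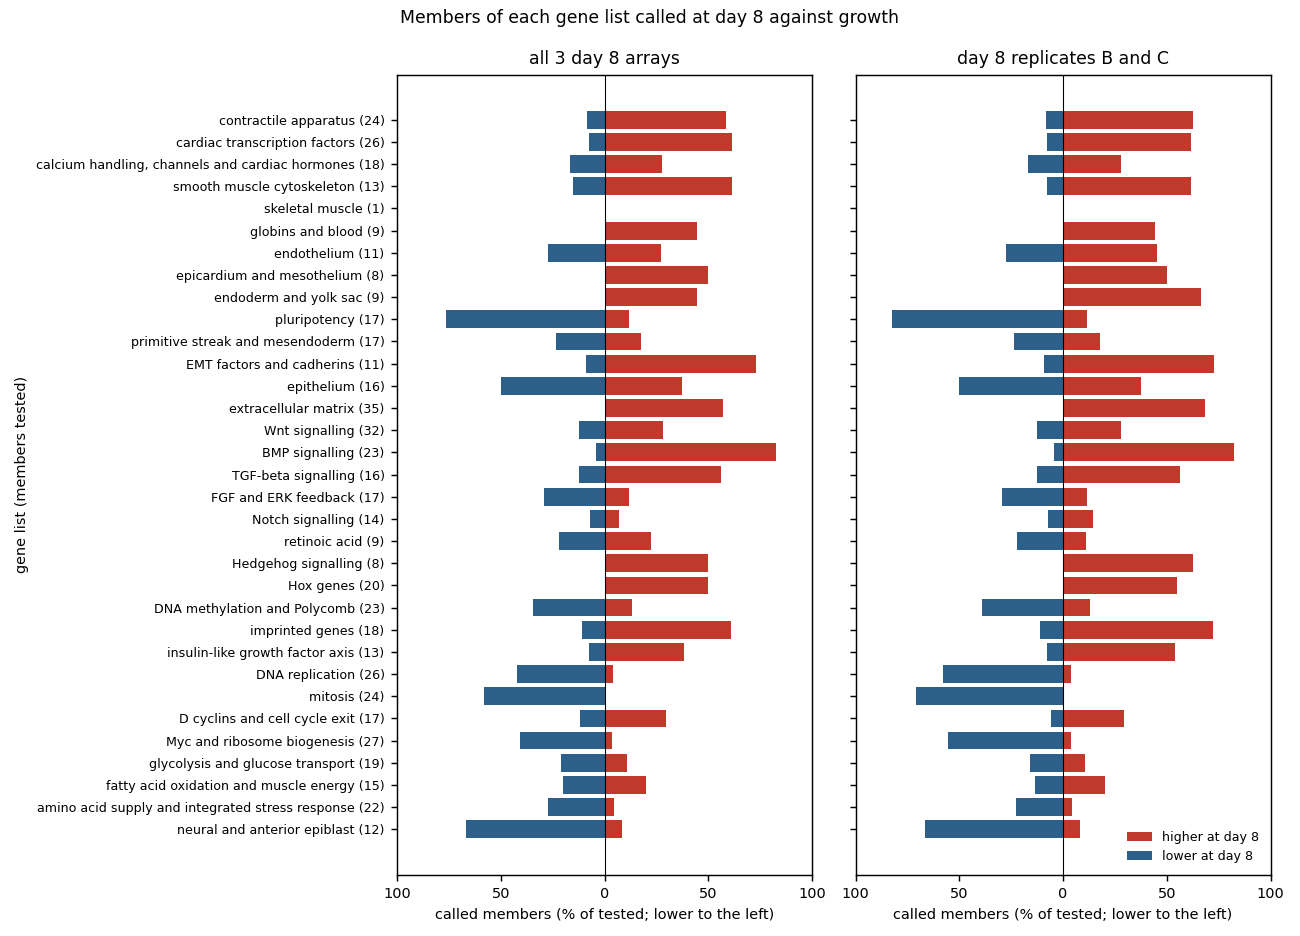
Share of tested members (x axis, percent) called higher (red, right) or lower (blue, left) at day 8 against growth in each of the 33 gene lists (y axis, number tested in brackets), with all 3 day 8 arrays (left panel) and with replicates B and C (right panel). BMP signalling has the longest red bar (82.6%) and pluripotency the longest blue one (76.5%), against 16% higher and 15% lower over all genes.

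Day 8 was then set beside its neighbours in time, by differences that do not use the growth means. The spread in these tests was still pooled over all 16 arrays, growth among them. Against day 6, 2 genes were called with all arrays (0.0185%), 0 higher and 2 lower, and 613 without A (5.67%), 404 higher and 209 lower. The shares without A were 3.74% higher and 1.93% lower. Replicate A was set apart because it lies close to the day 6 arrays, so leaving it out raises the count against day 6 by the choice itself, and that count and the list counts on B and C are descriptions of those 2 arrays. At an unadjusted limma p under 0.05, 639 genes were higher and 598 lower with all arrays. The 2 called genes were the primitive streak factor Evx1, at 4.02 and 4.92 at day 6 and 2.71, 2.40 and 2.30 at day 8, and the interferon-responsive factor Irf1, at 7.89 and 7.68 and then 6.50, 6.06 and 6.00. For both, A also lay below day 6. They are named because they were the only ones called. Between day 8 and day 10, 844 genes were called with all arrays (7.81%), 499 higher at day 10 (4.62%) and 345 lower, and 626 without A (5.8%), 377 of them higher (3.49%). Of the 24 contractile genes 14 were higher on B and C than at day 6 and 0 lower, and 19 rose further from B and C to day 10. Of the 22 genes of amino acid supply and the integrated stress response 16 were lower at day 10 than at day 8 with all arrays. Without A 17 were lower, against 3.19 and 2.31% of all genes. The mean level of this list was 9.72, 10.18 and 10.03 on day 8 A, B and C. It varied from 7.94 to 9.25 between the day 10 arrays, so the size of the fall depends on the day 10 array. Tnni1 was 2.25 log2 higher at day 10 than at day 8 (adjusted p = 0.0246) and Tnnt2 4.47 (adjusted p = 0.00199), and without A the differences were 1.23 and 3.21 (limma adjusted p = 0.0222 and 0.000251).

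Each day 8 array was placed between the day 6 mean (0%) and the day 10 mean (100%), over genes called between those days. These were 1802 genes (16.7%), and the placing has no test. For the 925 that were higher at day 10, the median position was 0.77% for A, 44% for B and 57% for C. For the 877 that were lower it was 7.22, 46.7 and 59.8%. A was thus close to day 6 and B and C about midway, with C ahead of B. For the 22 contractile genes among them the positions were 1.47, 32.1 and 57%. For 11 genes of amino acid supply and the integrated stress response they were -0.418, -14.7 and 3.8%. For 15 mitosis genes they were -3.63, 65.9 and 74.5%, for 10 Hox genes 19.4, 34.6 and 84.3%, and for 5 epicardial genes 0.936, 63.4 and 63.7%.

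**Figure D5:**
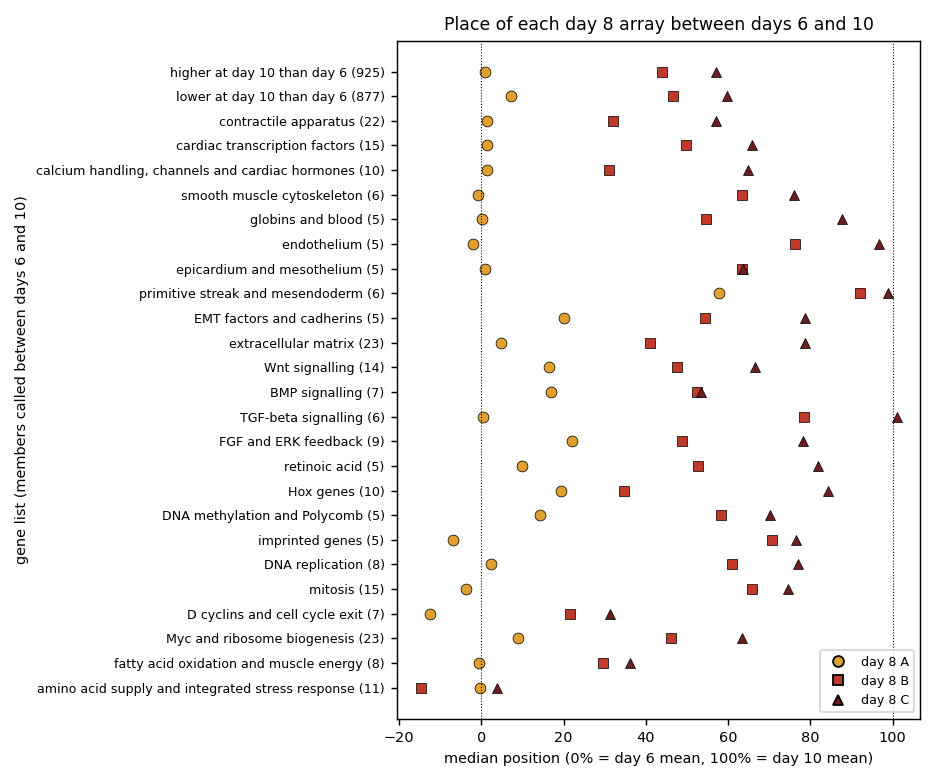
Median position of day 8 replicates A (yellow circles), B (red squares) and C (dark triangles) between the means of day 6 (0% on the x axis) and day 10 (100%), for all genes called between days 6 and 10 in each direction and for the members of each list among them (y axis, number in brackets). A lies between -12.4 and 22.1% in all rows but primitive streak genes, where it is at 57.9%, and C lies to the right of B in all rows.

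Genes on which A departed most from B and C were Hbb-bh1, Hba-x, Myl7, Col1a2, Csrp3, Alpk2, Ttr, Egr1, Adamts1 and Myl4 on the low side. Alpk2, a kinase of heart muscle, was at 2.23, 6.96 and 8.00 at day 8, and Adamts1, a matrix protease, at 5.80, 10.29 and 11.11. Egr1, an immediate early gene, was at 7.84, 7.59 and 6.82 in growth and at 3.14, 8.67 and 7.54 at day 8, so that A lay below the growth arrays, B above them and C among them. On the high side were Ms4a4d, Mme, Cxcr4, Rgs5, Tspoap1, Irgm1, Mnd1, Myc, Car14 and Foxf1. Cxcr4, a chemokine receptor of migrating mesoderm, was at 6.42, 6.64 and 6.75 in growth and at 7.02, 3.81 and 3.79 at day 8, against a day 6 mean of 7.76. It was called lower, although A lay above growth. Mme, a cell surface peptidase, was at 6.77, 3.15 and 3.80, and Foxf1, a factor of lateral plate mesoderm, at 6.55, 4.44 and 3.87. Both were called higher with all arrays and not without A.

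With A left out, 36 genes were higher on B and C than at both day 6 and day 10 (0.333%) and 5 lower (0.0463%), against 0 and 0 with all arrays. Cdh6, a cadherin, was at 7.55 and 8.07 on B and C, against means of 4.58 at day 6 and 4.91 at day 10. Ccn2, a matricellular protein, was at 9.0 and 9.54, against 7.05 and 6.87, and Irx3, an Iroquois homeobox factor, at 9.43 and 9.75, against 7.83 and 6.44. On A these 3 were at 4.61, 6.62 and 7.58, each near day 6. Atf3, a stress-induced factor, was at 7.95 and 7.81, against 5.48 and 5.78, and B and C differed from growth by 0.35, not called. The others among the first 10 were Klf5, Ctla2b, Slc46a3, Megf10, Kdelr3 and Slit2. The 5 lower genes were Aldoc, a glycolytic aldolase, at 4.29 and 4.52 against 6.11 and 7.42, and Wdr54, Cx3cl1, Tspo and Pfkl. With 2 arrays behind each day 8 value, these genes have little replication.

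Across all single-gene probe sets, 18970 were tested and 5432 called (28.6%), 2853 higher and 2579 lower. Of the 4968 genes with several tested probe sets, 790 had all called the same way and 1269 had some called and others not. In 2904 none was called, and in 5 genes probe sets were called in opposite directions, Cflar, Nisch, Phf10, Ppp2r5c and Zwint. For Ppp2r5c, a regulatory subunit of protein phosphatase 2A, 2 probe sets were higher by 2.54 and 1.68 log2 and 1 had a difference of -1.61. For Cflar, an inhibitor of caspase-8, 1 was higher by 1.90 and 1 had a difference of -1.64. Probe sets without a gene name here were called less often, 349 of 1685 tested (20.7%), 192 higher and 157 lower, a difference that was not tested.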

How the data were processed

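RNA of 16 samples was hybridised to 1-colour Affymetrix mouse arrays, 1 array each. The authors deposited a table of log2 signals of 45101 probe sets, normalized by GCRMA per the submitters' processing notes. The GCRMA version and the log base are not given in the sources used here, and the range of values, 0.863 to 15.9, was read as log2. Of the probe sets 34945 name 1 gene, 932 name several and 9160 none. Those above 4 on at least 2 arrays were kept, and each gene was represented by its single-gene probe set of highest mean, which left 10802 genes. Groups were compared by limma 3.58.1 under R 4.3.3, using lmFit and then eBayes on the 16 arrays, where each group had its own mean. All adjusted p-values for genes are from limma with Benjamini-Hochberg adjustment over the 10802 genes. Arrays have no read depth, so their number limits the precision.

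The comparison, its members, its markers and the gene lists were chosen with earlier results of these data known. Genes named are the 15 largest rises and falls without overlap, the 4 markers, up to 6 called members each way per list, members called against most of their list, members given as not called, the 10 genes where day 8 A is farthest above and below B and C, up to 10 genes beyond both day 6 and day 10, and genes with opposing probe sets. Other named genes were chosen after their values were seen. Same-letter arrays of growth and day 8 did not deviate together. Alternatives varied the filter, scaling, floor, model, probe set rule and thresholds, and left out each array. The method was tested on simulated data with known changes.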

Additional observations from a re-analysis of the deposited data

Results flagged for a closer look

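The rise of Tnni1 over growth was 2.247 log2 larger at day 10 than at day 8 (limma adjusted p = 0.0246), and that of Tnnt2 was 4.475 log2 larger (adjusted p = 0.00199), in tests of the difference between the 2 days themselves. Without day 8 replicate A these differences were 1.23 (adjusted p = 0.0222) and 3.21 (adjusted p = 0.000251). Among probe sets that have no gene name here and enter no comparison of genes, the one that rose most was 8.575 log2 higher at day 8 than in growth.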

How the results depend on the processing

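Against growth 3349 genes were called, and 5432 probe sets when every single-gene probe set was tested, or 1173 genes at 2 log2 or more. The other planned settings with all arrays gave 2937 to 3494. Leaving out 1 array gave from 3050 (without day 8 C) to 3613 (without day 8 A). The 2 genes called against day 6 became 1 with no filter, 1 with a common median, 1 at an adjusted p under 0.01, 8 when quantile normalized again, 4 with values under 4 set to 4, 4 with all single-gene probe sets, 0 at 2 log2 or more and 0 with only the groups compared. Array weights, which weight each array by its fit, gave 752, and leaving out 1 array gave from 1 (without day 8 C) to 613 (without day 8 A). The 844 genes called between day 8 and day 10 became 368 with only the groups compared, 1321 with all single-gene probe sets, 538 at an adjusted p under 0.01 and 247 at 2 log2 or more, and from 626 (without day 8 A) to 1079 (without day 8 C) when 1 array was left out. Beyond these constructions the cause was not tested. Over 4724 values of the 237 named genes, 4472 kept direction and call, 242 lost the call, 10 gained it and 0 reversed. Scaling moved the median difference from 0.0089 to -0.0462 (quantile) and -0.00637 (median), and the share of calls that were higher from 51.6% to 48% and 50.7%. The genes beyond both day 6 and day 10 without day 8 A come from a setting chosen after seeing the data.

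The labels do not say that equal letters share a culture or day, and deviations of same-letter growth and day 8 arrays correlated at -0.0105 (A), -0.118 (B) and 0.0122 (C). With the replicate letter as a block, 3358 genes were called against growth, 14 against day 6 and 864 between day 8 and day 10. Signals under 4 lie near background, so differences below that level cannot be read.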
